A study of Mus musculus with 9 samples.

Results

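The genes described here are the tumour necrosis factor (TNF) superfamily ligands and receptors, taken as every gene whose symbol in the array's annotation starts with Tnfsf or Tnfrsf and a number. The annotation lists 31 such symbols, and 29 of them had a probe set of their own, 9 ligands and 20 receptors, among 22180 genes with one. Each of the 29 had 1 probe set with a single symbol, so the rule of taking the brightest probe set never had to choose. Tnfsf12 and Tnfsf13 share a probe set with each other and with Tnfsfm13, and its signal, between 5.15 and 5.58, cannot be assigned to either. The family was chosen by name and not by its values, but earlier results of these data were known.

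Messenger RNA was read on 9 arrays (Affymetrix MoGene 2.0), 1 for each of 3 genotypes under 3 treatments. The genotypes were mouse embryonic fibroblasts of wild type mice (WT, STING+/+), of STING-/- mice (SKO), and of MyD88-/- mice (MyD88KO; the growth protocol writes MyD99KO). STING is the adaptor that relays the sensing of DNA in the cytosol, and MyD88 is the adaptor of most Toll-like receptors. Cells were mock controls, were transfected with double-stranded DNA (dsDNA, ISD in the titles), or were treated with lipopolysaccharide (LPS), the ligand of Toll-like receptor 4, for 6 h. The embryos' age, strain and number, the kind of deletion, and any transfection reagent given to mock cells, are not stated in the labels. With 1 culture per group, a difference between genotypes cannot be told apart from a difference between the cell preparations. All values are signals on a log2 scale, where 1 unit is a 2-fold difference, and they are compared only within a gene. A signal under 4.44, the median of all values, is called dim here. In these bulk samples, fewer cells of a type and less RNA per cell cannot be told apart.

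TNF superfamily ligands are mostly membrane proteins that act as trimers, some of them also after being cut free from the cell, and each binds 1 or a few receptors of the matching receptor family. Receptors with a death domain can start apoptosis or necroptosis, whereas most others bind TRAF adaptors and switch on the canonical or the alternative NF-kB pathway. Decoy receptors lack working signalling domains or are secreted and hold the ligand away from its signalling receptor. Fibroblasts are known to carry TNF receptors and the receptor of TWEAK, and several ligands, TRAIL among them, are known targets of interferon or NF-kB.

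Sequences upstream of the transcription start are shown for the 3 members with a promoter window that differed from mock by at least 2-fold on at least 1 array, since these are the regions where factors activated by dsDNA or LPS would be sought. They are the 250 bases before the start in RefSeq's GRCm38.p6, written 5′ to 3′ on the gene's strand, with the matches to AANNGAAA, the core of the sites of interferon regulatory factors, on either strand in capitals.
Tnfsf10, chr3:27316827-27317076, plus strand: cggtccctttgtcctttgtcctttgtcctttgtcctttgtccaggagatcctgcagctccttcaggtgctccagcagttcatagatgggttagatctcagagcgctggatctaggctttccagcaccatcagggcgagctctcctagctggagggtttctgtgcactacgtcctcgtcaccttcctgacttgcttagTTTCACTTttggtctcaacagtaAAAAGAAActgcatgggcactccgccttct
Tnfsf18, chr1:161494407-161494656, plus strand: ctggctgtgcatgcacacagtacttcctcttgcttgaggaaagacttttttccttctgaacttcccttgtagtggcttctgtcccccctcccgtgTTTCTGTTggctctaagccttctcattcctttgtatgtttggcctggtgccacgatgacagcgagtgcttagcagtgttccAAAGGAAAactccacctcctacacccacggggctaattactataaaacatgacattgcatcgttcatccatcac
Tnfrsf1b, chr4:145246871-145247120, minus strand: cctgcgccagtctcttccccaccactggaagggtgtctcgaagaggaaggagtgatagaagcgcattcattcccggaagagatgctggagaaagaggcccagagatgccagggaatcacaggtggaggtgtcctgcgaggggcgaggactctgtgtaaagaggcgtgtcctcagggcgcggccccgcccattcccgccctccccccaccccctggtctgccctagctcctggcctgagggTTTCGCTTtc
Tnfsf10 held 2 matches to AANNGAAA, 53 to 46 bases before the start on the opposite strand and 30 to 23 bases before it on the gene's strand. Tnfsf18 also held 2, 155 to 148 bases before the start on the opposite strand and 74 to 67 bases before it on the gene's strand. Tnfrsf1b held 1, 10 to 3 bases before the start on the opposite strand, and 1 match to TTCNNNGAA, the core of STAT sites, 181 to 173 bases before it. AANNGAAA is a short pattern that occurred in 21.3% of 32851 windows of the same length and in 11 of the 23 members with a window. Members were counted by gene, with a match in any of their windows, so these counts and the percentages of windows are unlike measures. TTCNNNGAA occurred in 7.02% of all windows and in 5 of 23 members, and the NF-kB consensus in 7.25% and in 3 of 23, Tnfrsf8, Tnfrsf9 and Tnfrsf25. A match is a run of letters and no evidence of binding. The 3 motifs were searched on both strands, overlaps between them included. Windows for Tnfrsf11b, Tnfrsf22 and Tnfrsf26 were not analysed here.

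The labels were checked first. Sting1, which encodes STING, stood at 4.54, 4.60 and 3.78 on the SKO arrays and between 8.54 and 9.32 on the other 6. Myd88 was bright on all 9 arrays, between 6.99 and 8.95, and since its probes may lie outside the deleted part this does not check the MyD88KO label. Of 10 fibroblast markers, 9 or 10 were at or above 4.44 on every array, but Pdgfra stood between 5.69 and 5.90 in WT and SKO against 7.80 to 8.55 in MyD88KO, and Thy1 between 9.07 and 9.29 against 11.27 to 11.44. Of 12 leukocyte and macrophage markers, 10 or 11 reached 4.44 on each array, and the log2 of their summed signal was 9.62 to 9.86 in WT, 10.27 to 10.43 in SKO and 9.90 to 10.07 in MyD88KO. Adgre1, a macrophage marker, stood between 4.84 and 5.54 in WT and between 6.71 and 7.15 in SKO. Of 6 endothelial markers, 2 or 3 reached 4.44, with log2 sums of 8.10 to 8.32 in WT, 7.86 to 7.92 in SKO and 7.39 to 7.70 in MyD88KO, and Tek, Vwf and Tie1 were dim on every array. The sums of 5 epithelial markers were 8.02 to 8.24, 7.89 to 7.93 and 7.54 to 7.80 in the same order, and those of 4 osteoblast markers 6.29 to 6.44, 6.29 to 6.59 and 6.32 to 6.48. The part of these shifts in the results on genotype was not tested. No array stood apart, with correlations between pairs of arrays from 0.942 to 0.995.

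Most of the family reached the dim line of 4.44, as most genes did. Of the 29 members, 24 reached it on at least 1 array and were tested, where 14737 of 22180 genes did. On every array 17 members reached it. The line is no detection call, so reaching it does not show that a transcript was present. The 5 members that were dim on all 9 arrays were the ligands Tnfsf4 (OX40 ligand), Tnfsf8 (CD30 ligand) and Tnfsf14 (LIGHT), and the receptors Tnfrsf13b (TACI) and Tnfrsf17 (BCMA), which are known from B cells. Tnfsf4 lay between 3.75 and 4.23. Tnfsf10 entered the tested set only through the dsDNA arrays of WT and MyD88KO.

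With dsDNA, the ligands TRAIL (Tnfsf10) and GITR ligand (Tnfsf18) and the decoy receptor osteoprotegerin (Tnfrsf11b) rose in the genotypes that carry STING. No member reached 2-fold or passed a test in cells without it. By array, 2 of 23 members were at least 2-fold above mock in WT, Tnfsf18 and Tnfrsf11b, where 1.94% of all genes were. In MyD88KO there were 3 of 22, Tnfsf10, Tnfsf18 and Tnfrsf1b, where 3.31% of all genes were, and in SKO 0 of 22, where 0.143% were. These counts cover members whose brighter array reached 4.44, and no member fell by 2-fold with dsDNA. Over all 9 ligands, whatever their signal, 8 lay above mock in WT with a median difference of 0.11 on the log2 scale, 7 in MyD88KO with a median of 0.49, and 2 in SKO with a median of -0.16. Of all 20 receptors, 12 lay above mock in WT with a median of 0.02, 8 in MyD88KO and 9 in SKO, both with medians of -0.00. The medians over all 22180 genes were 0.0, -0.02 and 0.0 in WT, MyD88KO and SKO.

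**Figure D1:**
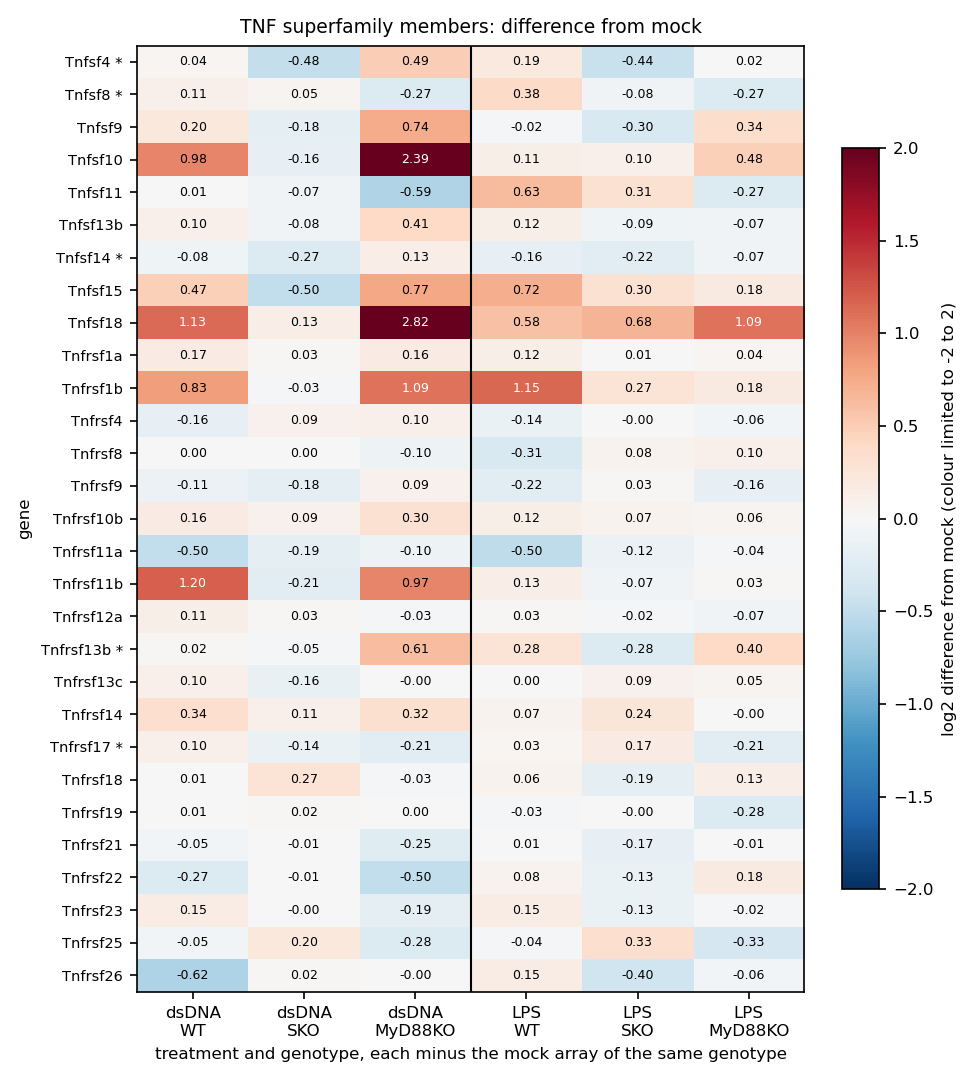
Differences of log2 signals from the mock array of the same genotype, for all 29 members (rows) and the 6 treated arrays (columns). Each cell prints its value, colours run from -2 to 2, and an asterisk marks the 5 members below 4.44 on every array. The dsDNA columns of WT and MyD88KO hold the rises of Tnfsf10, Tnfsf18 and Tnfrsf11b, and the dsDNA column of SKO holds none of them.

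A single array per group gives no test within a genotype, so limma was fitted over all 9 arrays with a dsDNA response shared by WT and MyD88KO, the genotypes that carry STING, and a response of its own for SKO. The p-values take WT and MyD88KO as responding alike to dsDNA, and WT and SKO as responding alike to LPS. Each gene's own spread is how far these genotypes differ in those responses, between single cultures, and it may be technical. The fitted values rest on the same assumptions. A fitted response, that of SKO included, thus need not equal the array difference, or the mean of the array differences, that it covers. In the shared response, 4 of 24 members passed an adjusted p of 0.05 over 14737 genes, where 7.56% of all genes did. Tnfrsf11b, Tnfsf18 and Tnfsf10 rose, and Tnfrsf22 fell. At an unadjusted p under 0.05 there were 10 of 24 members, where 20.8% of all genes were. Without the requirement that a gene reach 4.44, 3 of 29 members passed (Tnfrsf11b, Tnfsf10 and Tnfsf18), where 3.79% of all genes did. Leaving out WT LPS, SKO mock or SKO LPS gives the same estimate of the shared dsDNA response. Leaving out MyD88KO mock or MyD88KO dsDNA also gives the same estimate as each other. Fits within either set are therefore not separate checks of that response.

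Tnfsf10 encodes TRAIL, the ligand that starts apoptosis through its death receptor. Its log2 signal in mock, dsDNA and LPS was 3.74, 4.72 and 3.85 in WT, 3.87, 3.71 and 3.98 in SKO, and 3.70, 6.09 and 4.17 in MyD88KO. The 2 dsDNA arrays of the STING-carrying genotypes were the only ones above the dim line, and the other 7 lay between 3.70 and 4.17. The difference from mock was 0.98 in WT (1.98-fold), 2.39 in MyD88KO (5.23-fold) and -0.16 in SKO, and since mock was dim these folds understate any rise of the transcript. Tnfsf10 was tested only because of the 2 dsDNA arrays whose rise is tested here, so its p is no independent support. The shared dsDNA response was 1.64 ± 0.30 (SE; adjusted p = 0.0235, limma). It missed the threshold without WT LPS (adjusted p = 0.142), SKO mock (0.143), SKO LPS (0.142), MyD88KO mock (0.0745) or MyD88KO dsDNA (0.0828), and its value without either of the last 2 was 0.98. The difference between the shared and the SKO response was 1.70 ± 0.48 and did not pass (adjusted p = 0.237, limma). Without WT dsDNA it was 2.55, but the shared response then rests on the MyD88KO dsDNA array alone.

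Tnfrsf10b, the death receptor of TRAIL in the mouse, was bright on every array. It measured 10.20, 10.37 and 10.32 in WT, 10.21, 10.30 and 10.28 in SKO, and 9.62, 9.92 and 9.68 in MyD88KO. All 3 MyD88KO arrays lay below all 6 others, and dsDNA gave the highest of the 3 signals in each genotype. Its shared dsDNA response of 0.22 ± 0.06 missed the threshold (adjusted p = 0.0762, limma).

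Tnfrsf22 and Tnfrsf23 are mouse decoy receptors of TRAIL, and Tnfrsf26 is a related mouse receptor. RefSeq places the 3 genes side by side on chromosome 7, Tnfrsf22 next to each of the others. Tnfrsf22 and Tnfrsf23 are near copies whose probes could read both transcripts, so their values are uncertain. Tnfrsf22 measured 7.61, 7.35 and 7.69 in WT, 7.81, 7.79 and 7.68 in SKO, and 7.54, 7.04 and 7.72 in MyD88KO. The 2 lowest signals were the dsDNA arrays of MyD88KO and WT, and its shared response was -0.40 ± 0.09 (adjusted p = 0.0462, limma). This call was lost without WT dsDNA (adjusted p = 0.113), MyD88KO dsDNA (0.390), MyD88KO mock (0.396), WT LPS, SKO mock or SKO LPS (0.179 to 0.180). Tnfrsf23 moved little with treatment, between -0.19 and 0.15 from mock on the 6 treated arrays.

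Tnfrsf11b encodes osteoprotegerin, a secreted decoy that binds RANKL and also TRAIL. It measured 8.03, 9.23 and 8.16 in WT, 8.17, 7.96 and 8.10 in SKO, and 8.85, 9.83 and 8.88 in MyD88KO. Within WT and within MyD88KO the dsDNA array stood about 1 above both others, whereas in SKO the dsDNA array was the lowest of the 3. The differences from mock with dsDNA were 1.20 (2.29-fold), 0.97 (1.97-fold) and -0.21 in WT, MyD88KO and SKO. The shared response was 1.07 ± 0.08 (adjusted p = 0.000708, limma), and it passed when any 1 array was left out, at values from 0.98 to 1.15. It exceeded the SKO response by 1.23 ± 0.13 (adjusted p = 0.00911, limma), the only member whose difference between the STING-carrying genotypes and SKO passed, 1 of 24 where 1.29% of all genes did. That difference was at least 1.13 in all 8 fits with 1 array left out, but passed in only 2 of them, and its largest adjusted p was 0.325, without SKO mock. It missed the threshold without WT dsDNA (0.0634), WT LPS (0.167), SKO LPS (0.170), MyD88KO mock (0.0668) or MyD88KO dsDNA (0.0686) as well. At an unadjusted p under 0.05 the difference held 5 of 24 members, and 10.6% of all genes.

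**Figure D2:**
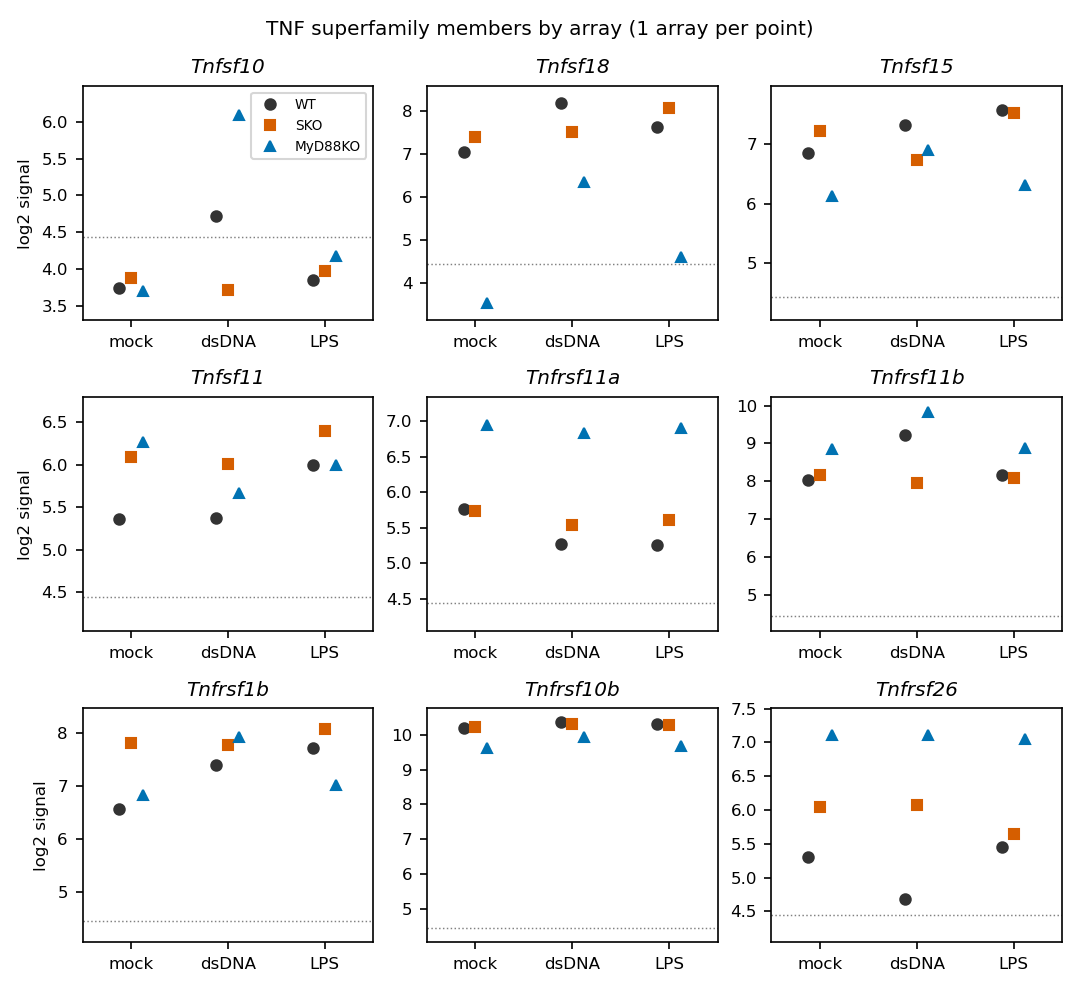
Log2 signal (vertical axis of each panel) of 9 members under mock, dsDNA and LPS, with 1 point per array for WT (circles), SKO (squares) and MyD88KO (triangles). The dotted line marks 4.44, and there are no error bars because each group holds 1 array. Tnfrsf11b rises with dsDNA in WT and MyD88KO only. Already in mock cells, Tnfsf18 is lower in MyD88KO than in WT and SKO, and Tnfrsf26 differs between WT, SKO and MyD88KO.

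RANKL (Tnfsf11) and its signalling receptor RANK (Tnfrsf11a), best known from osteoclast formation, complete the axis that osteoprotegerin blocks. Tnfsf11 measured 5.36, 5.37 and 6.00 in WT, 6.09, 6.01 and 6.40 in SKO, and 6.26, 5.67 and 6.00 in MyD88KO. LPS gave the highest signal in WT and SKO, mock the highest in MyD88KO. Its dsDNA difference from mock was -0.59 in MyD88KO, 0.01 in WT and -0.07 in SKO. Tnfrsf11a measured 5.76, 5.27 and 5.26 in WT, 5.73, 5.54 and 5.62 in SKO, and 6.94, 6.84 and 6.91 in MyD88KO. All 3 MyD88KO arrays lay above all 6 others, and each treated array was below its own mock, by 0.50 in WT under either treatment and by at most 0.19 elsewhere.

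Tnfsf18 encodes the ligand of GITR, a costimulatory receptor of T cells, and it varied more over the 9 arrays than any other member, with a range of 4.67. It measured 7.06, 8.19 and 7.64 in WT, 7.39, 7.52 and 8.07 in SKO, and 3.52, 6.34 and 4.60 in MyD88KO. The MyD88KO mock array was dim, and all 3 MyD88KO arrays lay below all WT and SKO arrays. With dsDNA the difference from mock was 1.13 in WT (2.19-fold), 2.82 in MyD88KO (7.07-fold, against a dim mock) and 0.13 in SKO. The shared response was 1.93 ± 0.34 (adjusted p = 0.0195, limma). It missed the threshold, at a larger value of 1.98, without WT LPS, SKO mock or SKO LPS (adjusted p = 0.140 each). The shared response was 1.16 without MyD88KO dsDNA and 2.82 without WT dsDNA. The difference from the SKO response, 1.72 ± 0.54, did not pass (adjusted p = 0.299, limma). Without WT dsDNA it was 2.72, again with the shared response resting on the MyD88KO dsDNA array alone.

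Tnfsf15, the ligand TL1A, lay above mock with dsDNA in WT and MyD88KO and below it in SKO. It measured 6.86, 7.32 and 7.58 in WT, 7.22, 6.73 and 7.53 in SKO, and 6.13, 6.90 and 6.31 in MyD88KO. The differences with dsDNA were 0.47, -0.50 and 0.77 in WT, SKO and MyD88KO. Neither the shared response of 0.55 ± 0.14 (adjusted p = 0.0641) nor its excess over SKO of 0.92 ± 0.22 (adjusted p = 0.159) passed in limma.

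The TNF receptors themselves differed from each other in range. Tnfrsf1a, the death-domain receptor of TNF that most cells carry, measured 9.44, 9.61 and 9.57 in WT, 9.61, 9.64 and 9.62 in SKO, and 9.60, 9.76 and 9.64 in MyD88KO, a range of 0.32. Tnfrsf1b, the TNF receptor without a death domain, measured 6.56, 7.39 and 7.71 in WT, 7.80, 7.77 and 8.07 in SKO, and 6.84, 7.93 and 7.01 in MyD88KO, a range of 1.51. SKO mock cells lay above both treated WT arrays. Its dsDNA difference was 0.83 in WT (1.78-fold), 1.09 in MyD88KO (2.13-fold) and -0.03 in SKO. Tnfrsf1b's shared response of 0.84 ± 0.20 missed the threshold (adjusted p = 0.0611, limma) and passed at 0.96 without WT LPS, SKO mock or SKO LPS (adjusted p from 0.0424 to 0.0427). The shared response of Tnfrsf1a was 0.15 ± 0.06 (adjusted p = 0.204, limma).

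Among the remaining ligands, Tnfsf9, which binds the T cell receptor 4-1BB (Tnfrsf9), measured 6.21, 6.41 and 6.19 in WT, 6.38, 6.21 and 6.08 in SKO, and 5.82, 6.56 and 6.16 in MyD88KO. The MyD88KO dsDNA array was the highest of the 9, 0.74 above its mock, and the shared response was 0.41 ± 0.16 (adjusted p = 0.196, limma). Tnfsf13b, the B cell survival factor BAFF, measured 4.69, 4.78 and 4.81 in WT, 4.97, 4.89 and 4.88 in SKO, and 4.38, 4.78 and 4.31 in MyD88KO. Its signal stayed near the dim line, and 2 of the MyD88KO arrays were under it.

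Among the remaining receptors, Tnfrsf12a (Fn14, the receptor of TWEAK) was bright and nearly level, between 10.29 and 10.46 on the 9 arrays. Tnfrsf21, a death-domain receptor, lay between 7.83 and 8.36, with all 3 SKO arrays below the other 6. Tnfrsf14 (HVEM, the receptor of LIGHT) lay between 4.42 and 5.11, and its shared dsDNA response of 0.35 ± 0.12 did not pass (adjusted p = 0.146, limma). Tnfrsf9 lay between 4.71 and 5.30, and Tnfrsf19 (TROY) between 4.25 and 4.58, at the dim line. The last 5 tested receptors were Tnfrsf4, Tnfrsf8, Tnfrsf13c, Tnfrsf18 and Tnfrsf25, the receptors of OX40 ligand, CD30 ligand, BAFF, GITR ligand and TL1A. Each of these 5 ranged over less than 0.67 on the 9 arrays, the widest being Tnfrsf25, and none passed in the fits to all 9 arrays. Tnfrsf8 reached 4.44 on 2 arrays and Tnfrsf25 on 3, so low signals limit what their ranges can show. Over all 9 arrays Tnfrsf25 was higher in SKO than in MyD88KO by 0.38 ± 0.13 and did not pass (adjusted p = 0.0736, limma). It passed only without SKO mock (0.53, adjusted p = 0.030, limma) or MyD88KO mock (0.52, adjusted p = 0.036). SKO mock and MyD88KO mock both read 4.41, so these fits drop an array of the pair that showed no difference.

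In the SKO response to dsDNA, 0 of 24 members passed limma, and 0 did at an unadjusted p under 0.05 or with robust eBayes. Over all genes 0.0% were called and 3.45% had an unadjusted p under 0.05. This response rests on 1 dsDNA array, so a small change could not have been called.

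With LPS, no member passed a test. By array, 1 of 22 members was at least 2-fold above mock in WT (Tnfrsf1b, where 0.864% of all genes were), 0 of 23 in SKO (0.536% of all genes), and 1 of 21 in MyD88KO (Tnfsf18, where 0.595% were). Tnfrsf1b was 1.15 above mock on the log2 scale in WT (2.22-fold), and the difference was 0.27 in SKO and 0.18 in MyD88KO. Tnfsf18 was 0.58, 0.68 and 1.09 above mock in WT, SKO and MyD88KO, the last from a dim mock to 4.60. Tnfsf15 was 0.72, 0.30 and 0.18 above mock in the same order, and Tnfsf11 differed by 0.63, 0.31 and -0.27. Osteoprotegerin and TRAIL, which rose with dsDNA as Tnfsf18 did, differed with LPS by 0.13 and 0.11 in WT, -0.07 and 0.10 in SKO, and 0.03 and 0.48 in MyD88KO.

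In limma, the LPS response shared by WT and SKO, the genotypes that carry MyD88, held 0 of 24 members at an adjusted p under 0.05, where 0.332% of all genes passed. At an unadjusted p under 0.05 it held 4, Tnfsf15 (0.57 ± 0.14, adjusted p = 0.455), Tnfrsf1b (0.78 ± 0.20, adjusted p = 0.554), Tnfsf11 (0.40 ± 0.15, adjusted p = 0.884) and Tnfsf18 (0.85 ± 0.34, adjusted p = 0.895). The LPS response of MyD88KO held 0 of 24, where 0.0746% of all genes passed, and Tnfsf18 had a fitted value of 0.64 ± 0.46 (adjusted p = 0.807, limma), which ran from -0.58 to 1.09 when 1 array was left out and so had no settled direction. The difference between both LPS responses held 0 of 24, where 0.0% of all genes passed, and for Tnfrsf1b it was 0.73 ± 0.33 (adjusted p = 0.869, limma). The LPS response averaged over the 3 genotypes held 0 of 24, where 0.0% of all genes passed. In these last 3 comparisons limma also held 0 members at an unadjusted p under 0.05, and robust eBayes called 0 members in any LPS comparison.

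The levels of some members differed between genotypes when averaged over the treatments. These levels were compared over the 3 matched treatments with limma, in a model of genotype and treatment as additive terms. The p-values take the genotypes as responding alike to both treatments. Each gene's own spread is then how far the genotypes differ in their responses, any different dsDNA response of SKO included. It does not measure how cultures of the same genotype vary. MyD88KO differed from WT in 4 of 24 members, where 19.5% of all genes were called, so the members did not exceed all genes. Of the 4, 3 were also at least 2-fold different, where 3.01% of all genes were. RANK and Tnfrsf26 were higher in MyD88KO, and GITR ligand and the TRAIL receptor were lower. These 4 calls held when any 1 array was left out.

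Tnfsf18 was lower in MyD88KO, which differed from WT by -3.54 in mock, -1.85 with dsDNA and -3.04 with LPS, and the fitted difference was -2.81 ± 0.45 (SE, 7.02-fold; adjusted p = 0.00464, limma). Its gap to WT was thus narrowest on the dsDNA arrays. Tnfrsf26 was higher in MyD88KO than in WT by 1.81, 2.42 and 1.59 in mock, dsDNA and LPS, a fitted 1.94 ± 0.20 (3.84-fold; adjusted p = 0.000595, limma). It measured 5.30, 4.69 and 5.46 in WT, 6.05, 6.07 and 5.65 in SKO, and 7.11, 7.11 and 7.05 in MyD88KO, so the 3 genotypes did not overlap and SKO lay between the others. The WT dsDNA array was 0.62 below its mock, the largest drop of any member counted. Tnfrsf11a was higher in MyD88KO than in WT by 1.18, 1.57 and 1.64, a fitted 1.46 ± 0.10 (2.76-fold; adjusted p = 0.000113, limma). Tnfrsf10b was lower, at -0.58, -0.44 and -0.64, a fitted -0.55 ± 0.05 (1.47-fold; adjusted p = 0.000423, limma). Tnfsf15 at -0.80 ± 0.26 (adjusted p = 0.069) and Tnfrsf11b at 0.71 ± 0.25 (adjusted p = 0.0999) did not pass in limma. Both passed without SKO dsDNA (adjusted p = 0.00514 and 0.000174), and Tnfsf15 also without MyD88KO dsDNA, at -1.12 (0.0112). Pdgfra and Thy1 moved with the same genotype, as given above.

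SKO differed from WT in 1 of 24 members, where 2.32% of all genes were called. It was Tnfrsf23, the decoy receptor, which measured 10.47, 10.62 and 10.62 in WT, 11.06, 11.06 and 10.93 in SKO, and 10.51, 10.32 and 10.49 in MyD88KO. All 3 SKO arrays lay above all 6 others, by 0.45 ± 0.07 over WT (1.37-fold; adjusted p = 0.0265, limma). The call was kept only without MyD88KO dsDNA, and leaving out any of the other 8 arrays gave adjusted p from 0.0501 to 0.138 at differences of at least 0.37. Tnfrsf21 at -0.39 ± 0.08 (adjusted p = 0.0577), Tnfrsf26 at 0.77 ± 0.20 (adjusted p = 0.113), Tnfsf11 at 0.59 ± 0.16 (adjusted p = 0.122) and Tnfrsf1b at 0.66 ± 0.27 (adjusted p = 0.304) did not pass in limma. Tnfrsf21 passed without SKO dsDNA (-0.47, adjusted p = 0.0305) or MyD88KO dsDNA (0.0262). For Tnfrsf1b the gap between SKO and WT was 1.24 in mock, 0.38 with dsDNA and 0.36 with LPS.

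**Figure D3:**
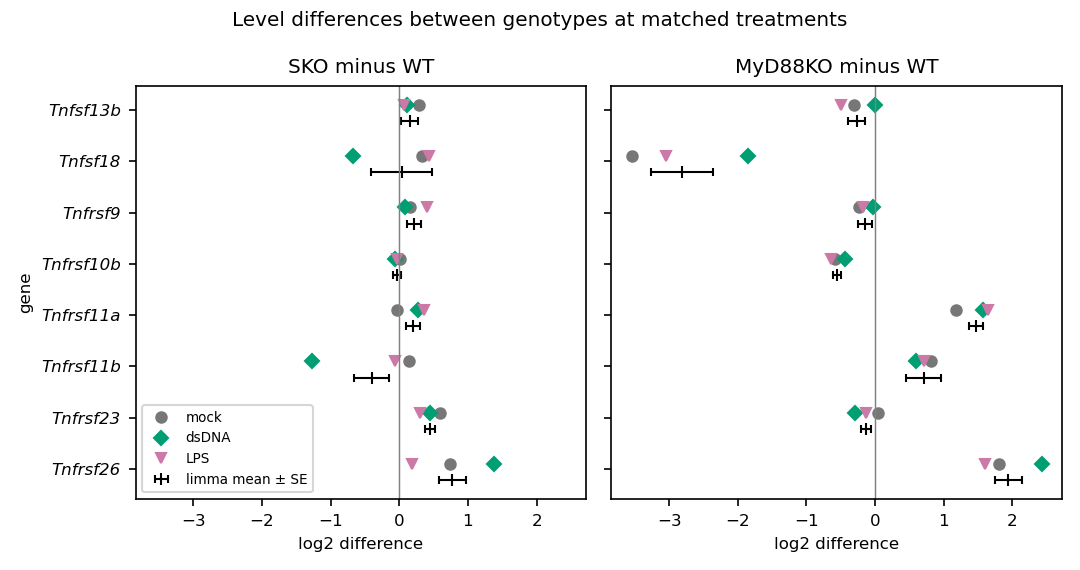
Differences of log2 signal from WT for SKO (left) and MyD88KO (right) in 8 members that passed in at least 1 comparison of genotypes. Coloured points are the 3 matched treatments, and black ticks with bars are the limma mean ± SE over 9 arrays. Tnfrsf11a and Tnfrsf26 lie above 1 and Tnfsf18 below -1 in MyD88KO under every treatment.

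SKO and MyD88KO differed in 8 of 24 members, where 26.6% of all genes were called, and in 4 of 24 by at least 2-fold as well, where 3.72% were. SKO was higher in Tnfsf18 by 2.84 ± 0.45 (adjusted p = 0.00343), Tnfrsf23 by 0.58 ± 0.07 (0.00121), Tnfrsf10b by 0.52 ± 0.05 (0.000444), Tnfsf13b by 0.42 ± 0.12 (0.0417) and Tnfrsf9 by 0.36 ± 0.11 (0.0409), all in limma. It was lower in Tnfrsf11a, at -1.27 ± 0.10 (adjusted p = 0.000175), in Tnfrsf26, at -1.17 ± 0.20 (0.0048), and in Tnfrsf11b, at -1.11 ± 0.25 (0.0167, limma). For Tnfrsf11b the gap was -0.68 in mock, -1.86 with dsDNA and -0.78 with LPS, so it holds the different dsDNA responses too, and the call was lost without MyD88KO mock (adjusted p = 0.0526) or MyD88KO dsDNA (0.0564). Tnfsf13b and Tnfrsf9 passed in only 2 of 9 fits with 1 array left out, with adjusted p up to 0.158 and 0.144. On the dsDNA arrays SKO exceeded MyD88KO by only 0.11 in Tnfsf13b and 0.12 in Tnfrsf9. The SKO and WT comparisons with MyD88KO share the MyD88KO arrays and are given side by side only for their own values.

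Over the 9 arrays, 8 of the 24 tested members ranged over at least 2-fold, 33.3%, where 14.6% of all tested genes did. They were Tnfsf18, Tnfrsf26 (2.43), Tnfsf10 (2.39), Tnfrsf11b (1.86), Tnfrsf11a (1.68), Tnfrsf1b, Tnfsf15 and Tnfsf11 (1.04). The median range was 0.713 for the members and 0.504 for all tested genes. Some variable members have a neighbour in the genome from the same family. Tnfsf18 lies next to Tnfsf4 on chromosome 1, and their ranges were 4.67 and 0.49. On chromosome 4, Tnfsf15 lies next to Tnfsf8, with ranges of 1.44 and 0.53, and Tnfrsf1b next to Tnfrsf8, with ranges of 1.51 and 0.39. Tnfsf4 and Tnfsf8 were dim on all arrays and Tnfrsf8 on 7 of 9.

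The rest of the pathway was read from lists of 63 genes in 8 groups, of which 57 had their own probe set and 52 were tested. The others were not analysed here. In the shared dsDNA response 6 of 52 rose, where 5.27% of all genes did, and 2 of 52 fell, where 2.29% did. In its difference from SKO 1 of 52, Mlkl, passed, near the 1.29% of all genes. At an unadjusted p under 0.05 in limma the shared dsDNA response held 23 of 52, where 20.8% of all genes were. Its difference from SKO held 7 of 52 at that p, where 10.6% were. In the SKO response to dsDNA 0 of 52 passed in limma, with 3 at an unadjusted p under 0.05, where 3.45% of all genes were. The 4 LPS comparisons held 0 of 52 each at an adjusted p under 0.05. At an unadjusted p under 0.05 the shared LPS response held 15 of 52, where 5.48% of all genes were, and that of MyD88KO 2, where 7.08% were. Their difference held 1, where 5.18% were, and the average over genotypes 9, where 4.73% were. These lists were chosen with earlier results of these data known.

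Among ligands with other symbols, 0 of 4 tested passed in the shared dsDNA response. Tnf itself, the founding ligand, measured 5.20, 7.77 and 9.82 in WT, 6.58, 6.42 and 8.09 in SKO, and 5.25, 6.99 and 6.27 in MyD88KO. It was above mock with dsDNA by 2.58 in WT and 1.73 in MyD88KO and differed by -0.16 in SKO, and its shared response of 1.77 ± 0.59 did not pass (adjusted p = 0.151, limma), with adjusted p from 0.0415 to 0.602 when 1 array was left out. With LPS it was 24.7-fold, 2.84-fold and 2.03-fold above mock in WT, SKO and MyD88KO. The model takes WT and SKO as responding alike to LPS, so that gap enters its spread. The gap also shifts the fitted dsDNA response of 1.77, which is not the mean of 2.58 and 1.73. Among receptors with other symbols, 1 of 6 rose and 1 fell, Eda2r, the receptor of ectodysplasin A2, at 1.14 ± 0.18 (adjusted p = 0.0153), and Relt at -0.61 ± 0.10 (adjusted p = 0.0142, limma). The Eda2r call was lost without WT LPS, SKO mock or SKO LPS, and the Relt call without any of 6 arrays. Fas, the death receptor of Fas ligand, was above mock with dsDNA by 0.73, 0.35 and 1.78 in WT, SKO and MyD88KO and with LPS by 0.72, 0.19 and 1.02. Fas stood at 7.50 in SKO mock, above 6.61 in WT mock, 7.33 in WT dsDNA and 5.10 in MyD88KO mock. Cd40, the receptor of CD40 ligand, was 1.31 above mock with dsDNA in MyD88KO, 0.17 in WT and 0.19 in SKO.

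**Figure D4:**
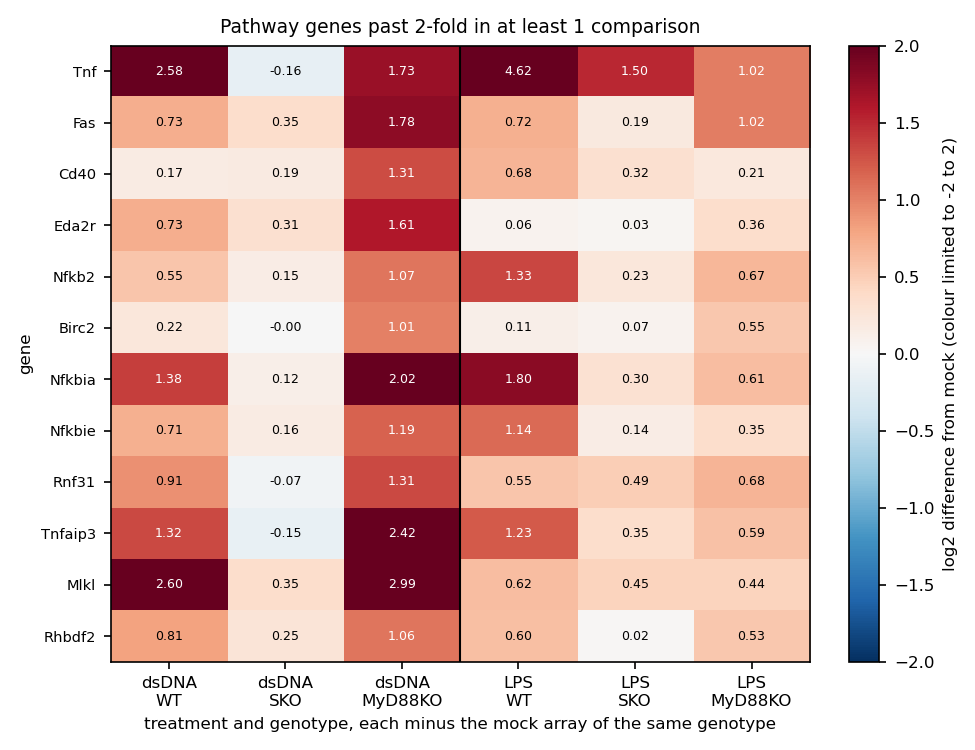
Differences of log2 signals from mock for the 12 pathway genes outside the named family that were at least 2-fold above mock on at least 1 array (rows), on the 6 treated arrays (columns). Each cell prints its value. Mlkl reaches 2.60 and 2.99 with dsDNA in WT and MyD88KO and 0.35 in SKO, and Tnf reaches 4.62 with LPS in WT.

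Among death execution genes, 1 of 5 rose with dsDNA, Mlkl, the membrane-permeabilising effector of necroptosis. Mlkl measured 5.97, 8.58 and 6.59 in WT, 6.83, 7.18 and 7.27 in SKO, and 6.82, 9.81 and 7.26 in MyD88KO. Its shared response was 2.76 ± 0.12 (adjusted p = 5.47e-05, limma) and passed without any 1 array. It exceeded the SKO response by 2.34 ± 0.19 (adjusted p = 0.00294, limma), and that call was lost without WT LPS, SKO mock or SKO LPS. Among 8 genes of ubiquitin editing 2 rose, Tnfaip3 (A20, an inhibitor of NF-kB signalling) by 1.72 ± 0.31 (adjusted p = 0.0227) and Rnf31 (HOIP, of the linear ubiquitin ligase) by 1.09 ± 0.12 (adjusted p = 0.00298, limma). The Rnf31 call was lost without WT LPS, SKO mock or SKO LPS, and the Tnfaip3 call without these or WT mock, MyD88KO mock or MyD88KO dsDNA. Tnfaip3 stood at 8.22 in SKO mock against 7.22 in WT mock and 6.27 in MyD88KO mock.

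In the canonical NF-kB list, 1 of 11 rose, Rela by 0.29 ± 0.07 (adjusted p = 0.0461, limma), a call kept in only 2 of 9 fits with 1 array left out. Nfkbia, the NF-kB inhibitor and an early target of it, was above mock with dsDNA by 1.38, 0.12 and 2.02 in WT, SKO and MyD88KO, and Nfkbie by 0.71 in WT, 0.16 in SKO and 2.28-fold in MyD88KO. The SKO mock signal of Nfkbia, 9.07, lay above the WT dsDNA signal, 9.01, and the WT and MyD88KO mock signals, 7.62 and 7.77. With LPS, Nfkbia was 1.80 and Nfkbie 1.14 above mock in WT, and neither reached 2-fold in SKO or MyD88KO. The alternative NF-kB list had 0 of 5 called, with Nfkb2 above mock with dsDNA by 0.55, 0.15 and 1.07 and with LPS by 1.33 in WT, and Birc2 by 1.01 with dsDNA in MyD88KO. Nfkb2 stood at 7.72 in SKO mock, against 7.23 in WT mock and 7.23 in MyD88KO mock. Of 9 receptor adaptors 1 fell, Traf4 at -0.39 ± 0.08 (adjusted p = 0.041, limma), a call lost without any of 6 arrays. Of 4 genes for the shedding of ligands and receptors 1 rose, Rhbdf2 by 0.85 ± 0.16 (adjusted p = 0.0247, limma), lost without WT mock, WT dsDNA, MyD88KO mock or MyD88KO dsDNA.

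Between genotypes, 2 of 52 pathway genes were higher in MyD88KO than in WT, where 8.69% of all genes were, and 5 of 52 lower, where 10.8% were, so the lists did not exceed all genes. Between SKO and WT 0 of 52 passed in limma, where 2.32% of all genes did, with 7 at an unadjusted p under 0.05, where 15.2% were. Map3k14, the kinase of the alternative NF-kB pathway, was higher in MyD88KO by 0.44 ± 0.08 (adjusted p = 0.00682), and Rbck1 was the other. Lower were Fas at -1.05 ± 0.24 (adjusted p = 0.0214), Rhbdf2 at -0.87 ± 0.15 (0.0062), Ngfr at -0.78 ± 0.10 (0.00195), Traf4 at -0.75 ± 0.12 (0.00383) and Sharpin (limma). The Fas call was lost without WT mock, WT LPS, MyD88KO mock or MyD88KO LPS, and those of Map3k14, Ngfr, Rhbdf2 and Traf4 held without any 1 array. SKO was higher than MyD88KO in 9 of 52, where 14.1% of all genes were, and lower in 3 of 52, where 12.5% were, with Fas, Ngfr, Traf4 and Rhbdf2 among the former and Map3k14 among the latter.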

How the data were processed

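RNA of 9 fibroblast cultures was hybridised to Affymetrix MoGene 2.0 arrays. The authors deposited log2 signals per probe set, made with Affymetrix Expression Console 1.3.1.187 per the submitters' processing notes; the sources used here do not name the background correction, normalisation or summarisation. Array medians were 4.42 to 4.46, and no scaling was added. Detection calls were not used, and precision is limited by the number of arrays. Of 41345 probe sets, 23521 carried 1 gene symbol, 1814 several and 16010 none; only the first kind was used. By gene identifier, 23328 of these matched RefSeq's GRCm38.p6 table, used for names, chromosomes and gene order. Where a gene had several probe sets, the one with the highest mean was kept.

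Differences between arrays were counted at 2-fold where the brighter array reached 4.44. Tests used limma 3.58.1 in R 4.3.3 (lmFit, eBayes with an intensity trend, p adjusted by Benjamini-Hochberg over the 14737 genes that reached 4.44 on any array, threshold 0.05). The response model had 2 residual degrees of freedom and the genotype model 4, and scripts were tested on simulated data. Members named with values were those past 2-fold from mock, those called in a test, and 16 listed by name at the outset; other members are given by range. The members, lists and models were chosen with earlier results of these data known. Alternatives changed the dim filter, the trend, robust fitting, quantile normalisation, the probe set rule, the fold and each array in turn.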

Additional observations from a re-analysis of the deposited data

Results flagged for a closer look

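2 results differed between genotypes by a test of the difference itself, the dsDNA response shared by WT and MyD88KO minus that of SKO in limma. They were 1 of 24 members and 1 of 52 pathway genes, where 1.29% of all genes passed. For Tnfrsf11b, osteoprotegerin, the difference was 1.23 on the log2 scale (SE 0.13, adjusted p = 0.00911), with differences from mock of 1.20, 0.97 and -0.21 in WT, MyD88KO and SKO. For Mlkl, the effector of necroptosis, it was 2.34 (SE 0.19, adjusted p = 0.00294), with differences of 2.60, 2.99 and 0.35. Both rest on 1 SKO dsDNA array, and no group had enough arrays to look for a sample far from the others. The Tnfrsf11b call held in only 2 of 8 fits with 1 array left out. The Mlkl call was lost without WT LPS, SKO mock or SKO LPS.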

How the results depend on the processing

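Among members with an unadjusted p under 0.05 in a comparison, no direction reversed under any alternative run; the LPS response of Tnfsf18 in MyD88KO, which had no such p, ran from -0.58 to 1.09 when 1 array was left out. Without the intensity trend, the shared dsDNA response held 1 member (4 in the reported setting) and 638 genes (1114), its difference from SKO 0 members (1) and 84 genes (190), and SKO against WT 0 members (1). The shared LPS response then held 29 genes (49), and the LPS response of MyD88KO 0 genes (11; 4 with no dim filter). Robust eBayes called 2 members in SKO against WT. A fold of 1.5 in place of 2 gave 8 members different from mock (4). With dsDNA, 4 of 23 members then rose in WT, where 4.31% of all genes did. In MyD88KO 6 of 22 rose, where 6.4% of all genes did, and in SKO 0 of 22, where 0.702% did. In WT 1 of 23 fell, where 165 of 13924 genes did, and in MyD88KO 1 of 22, where 419 of 14027 did. The Tnfsf18 and Tnfsf10 calls in the shared dsDNA response were lost without the trend (adjusted p = 0.0604 and 0.0608), Tnfsf18 also with robust eBayes (0.0878), and Tnfrsf22 without the trend (0.0951) or with no dim filter (0.0784); the Tnfrsf11b difference from SKO was lost without the trend (0.0547). The Tnfrsf9 and Tnfsf13b calls were lost with no dim filter and with quantile normalisation. Leaving out 1 array leaves 1 residual degree of freedom in the response model and 3 in the genotype model, and a lone array is assumed to vary like the others. Members called then ranged from 2 to 4 in the shared dsDNA response, 0 to 2 in its difference from SKO, 0 to 2 in SKO against WT, 4 to 7 in MyD88KO against WT and 6 to 11 in SKO against MyD88KO, and were 0 in the SKO response and the LPS comparisons. Over all genes the ranges were 270 to 1111, 14 to 236, 65 to 471, 1720 to 3501 and 2712 to 3565 in that order, 4 to 52 for the shared LPS response, 0 to 29 for that of MyD88KO and 0 to 60 for LPS averaged over genotypes. The causes were not tested. The dsDNA response of SKO, the LPS response of MyD88KO and the differences that use them could not be fitted without the treated array they rest on, which left 8 fits each. Signals under 4.44 bound what Tnfsf10 in unstimulated cells and Tnfsf18 in MyD88KO mock cells can show. No paired analysis was possible because each group holds 1 array, so groups share a single replicate number.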
